A study of Danio rerio with 4 samples.

Results

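The baseline described here is the set of genes measured in whole zebrafish embryos injected with a control morpholino, at 48 hours post fertilisation (hpf). Embryos were of the TU wild-type strain, kept at 28 °C, and the labels name no mutation or transgene in them. A morpholino is a synthetic antisense oligonucleotide that is injected into early embryos to block the splicing or translation of a chosen transcript. Per the labels, an RNA sample was made from about 100 embryos and a library from 3 such samples together, out of 6 for the group. This gave 2 control libraries, control A and control B, each a mix of many animals, made from total RNA and sequenced on an Ion Proton at 2 libraries a chip. A second group of 2 libraries, injected with a morpholino against the ubiquitin ligase gene hace1, enters only the count of genes listed at 0 everywhere. Whether the parents of both control libraries were different fish is not stated, so their spread may be technical.

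The members were selected on their counts in these libraries. They are the genes with an estimated count of at least 10 in both control libraries, which gave 10030 of 32512 annotated genes (30.9%). A further 3203 genes were above 0 in some library but under that minimum, and 19279 were listed at 0 in all 4 libraries of the series. Members made up 75.8% of the genes above 0. All values below describe these members and carry no test, because the same counts chose them.

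The control embryos had received the standard control morpholino, which is shown because it is what every library of this baseline was exposed to. It was designed against a human beta-globin intron and is widely used as an oligonucleotide without an intended zebrafish target.
standard control morpholino, 5′ to 3′: cctcttacctcagttacaatttata
This oligonucleotide is 25 bases long, and 8 of its bases are G or C.

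At 48 hpf a zebrafish embryo is about to hatch. Its trunk is filled with contracting muscle of fast and slow fibres, its blood circulates red cells made in a first embryonic wave, and a thin outer skin layer, the periderm, covers the body. The lens of the eye is filling its fibre cells with crystallins, the liver is small, and the yolk is wrapped in a syncytial layer that secretes lipoproteins. The gut and pancreas are not yet digesting food. Most other RNA in any embryo comes from genes that every cell uses, such as those for ribosomes, splicing and the cytoskeleton.

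Counts over all genes summed to 5192490 in control A and 8596019 in control B. Levels are given as CPM, the field's usual scaling of a gene's count by that sum, or, wherever genes are compared with each other, as CPM divided by the length of the exons in kilobases (CPM per kb). The members held 99.7% of the counts in control A and 99.8% in control B. A count of 10 corresponded to 1.93 CPM in control A and 1.16 CPM in control B. Just inside the minimum stood traf3ip1, with estimated counts of 10.0 in control A and 11.9 in control B, VAV3 with 10.0 and 15.1, efcab2 with 10.0 and 26.4, and ttpa with 10.0 and 27.4, along with 1 gene that has only a clone name. Just outside stood inpp5ja with 9.99 in control A and 12.5 in control B, ccnd3 with 9.99 and 10.4, adcy1a with 10.0 and 9.99, znf1003 with 9.98 and 27.8, and acot16, whose estimate in control A fell short of 10 only at the sixth decimal.

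The levels covered a wide range. The median member stood at 8.06 CPM per kb, the 10th percentile at 1.65, the 90th at 55.2 and the 99th at 876 CPM per kb. At 1000 CPM per kb or more there were 93 members (0.927%), and these held 34.7% of the counts in control A and 36.1% in control B. Between 100 and 1000 CPM per kb lay 491 members, which held 24.4% of the counts in control A and 25.6% in control B. The 5293 members between 1 and 10 CPM per kb, more than any other class, held 8.26% of the counts in control A and 7.32% in control B. In control A 233 genes were enough for 50% of the counts, and in control B 198 genes were enough.

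**Figure D1:**
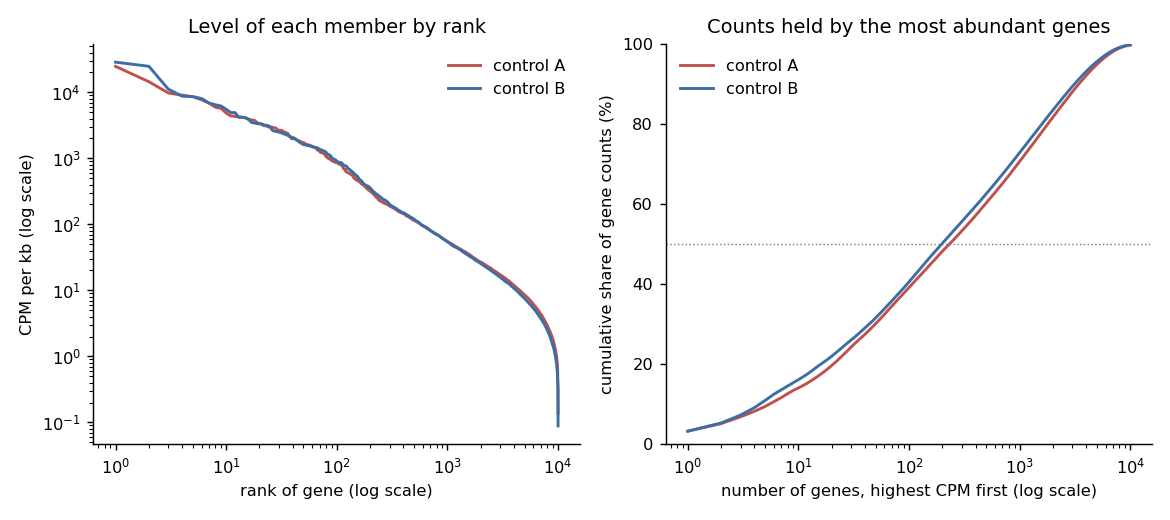
Left, level of each member in CPM per kb against its rank within the library, both axes logarithmic, with control A in red and control B in blue. Right, cumulative share of all gene counts against the number of genes taken from the highest CPM down, with a dotted line at 50%; the line is crossed after 233 genes in control A and 198 genes in control B.

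The genes at the top were those of contracting muscle, the ribosome, red blood cells, skin and the cytoskeleton. All of the 20 highest members per kb belonged to a gene list of a tissue or a cell function, 11 to a tissue list and 9 to a function list alone. The lists were chosen with earlier results of these data known, so this coverage was not independent of the levels. The highest was mylpfa, the regulatory light chain of fast muscle myosin, on the minus strand at chr3:32950024-32954250 (Zv9) with 1304 exonic bases in 6 exonic regions. It stood at 24737 CPM per kb in control A and 24825 CPM per kb in control B, and alone it held 3.23% of the counts in control A and 3.24% in control B. The gene next to it in order was pvalb2, a parvalbumin that binds calcium in fast fibres, on the minus strand at chr12:18777974-18780047. Its level was 14505 CPM per kb in control A and 28656 CPM per kb in control B. In control B pvalb2 was thus the highest of all members, and in control A mylpfa was.

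After pvalb2 came hbae3, an embryonic alpha globin, at 9782 CPM per kb in control A and 11177 CPM per kb in control B. It was followed by rplp0, a protein of the stalk of the large ribosomal subunit, at 9069 CPM per kb in control A and 8616 CPM per kb in control B. Next came krt4, a periderm keratin, with 7702 CPM per kb in control A and 8066 CPM per kb in control B. The order of neighbours among these genes was often not the same in both libraries. Thus rpl27 stood above actb2 in control A (8587 against 5727 CPM per kb) and below it in control B (6473 against 8750 CPM per kb). The beta actins actb1 and actb2 are near copies, so how reads were divided between them is uncertain.

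**Figure D2:**
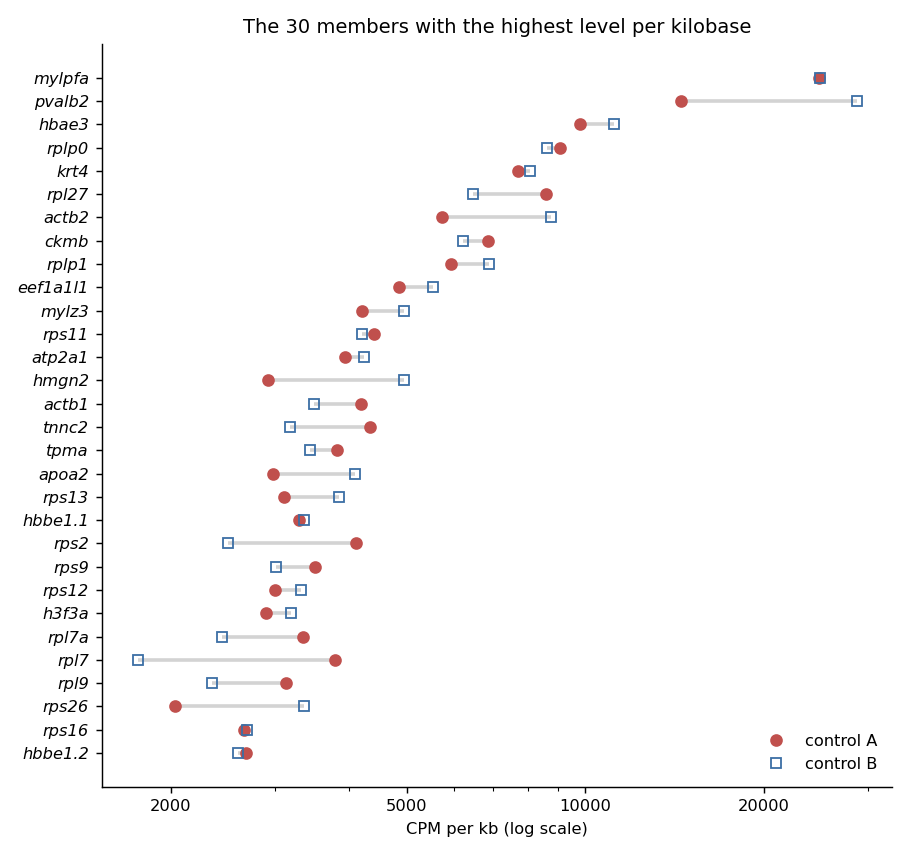
Level in CPM per kb (logarithmic axis) of the 30 members with the highest mean, with control A as filled red circles, control B as open blue squares and a grey bar between them. The bar is widest for rpl7 and pvalb2, whose levels differed by about 1 on the log2 scale, and is nearly absent for mylpfa, rps16 and hbbe1.1.

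Ranking by CPM, without division by length, brought in long transcripts. Among the 20 highest by CPM were myhz1.1, a fast myosin heavy chain with 6011 exonic bases, at 5906 CPM in control A and 7471 CPM in control B, and col1a1a, a chain of type I collagen with 5797 exonic bases, at 5010 CPM in control A and 6963 CPM in control B. The chaperone genes hspa8 and hsp90ab1 and the RNA-binding protein gene cirbp were there too. Per kb, myhz1.1 stood in place 84 and col1a1a in place 92.

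To see from which tissues abundant RNA came, members were sorted into 23 tissue lists and 12 lists of cell functions. Together these lists held 991 members, which took 51.7% of the counts in control A and 54.0% in control B. The 530 members of tissue lists held 23.1% in control A and 25.9% in control B. The 9039 members on no list held 48.0% in control A and 45.8% in control B, but their median level was 7.40 CPM per kb, against 16.6 for the tissue lists and 87.5 for function lists. Only 8 of them were among the 100 highest genes per kb, with krt1-19e, a keratin gene, first at 2966 CPM per kb in control A and 1552 CPM per kb in control B. Because earlier results of these data were known when the lists were chosen, the contrast between listed and unlisted genes is not independent of the levels. Fewer cells of a type and less RNA per cell cannot be told apart in RNA from whole embryos, so a share describes RNA and not cell number.

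**Figure D3:**
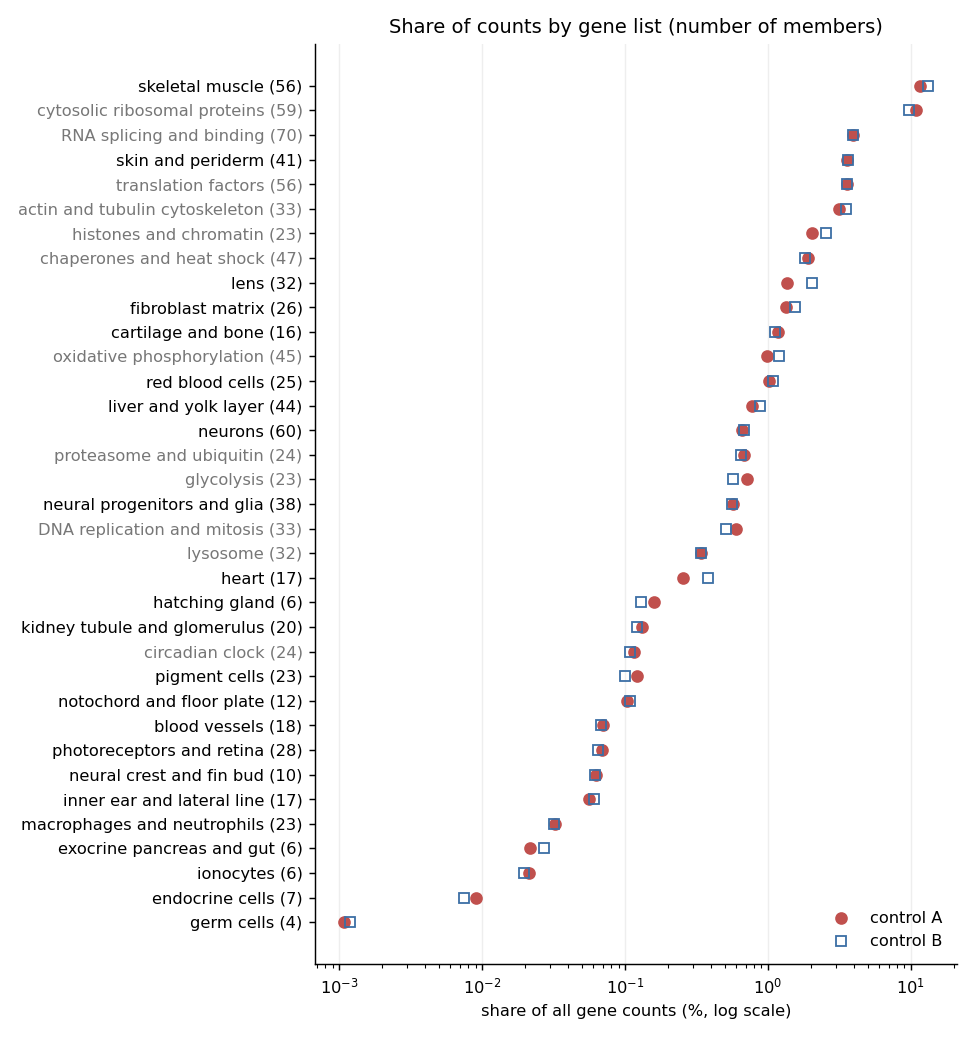
Share of all gene counts held by the members of each list, on a logarithmic axis, with control A as red circles and control B as open blue squares; names of tissue lists are black, names of function lists are grey, and the number of members stands in brackets. Skeletal muscle and cytosolic ribosomal proteins held 12.4% and 10.3% of the counts on average, and the germ cell list held the least.

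Skeletal muscle held more of the counts than any other list, 11.6% in control A and 13.2% in control B. Of its 88 annotated genes 56 were members, 1 was under the minimum and 31 were listed at 0. Its median level was 70.4 CPM per kb, against 8.06 for all members. Of its members 32 lay in the highest 10.0% of all members by CPM per kb, which is the share of all members in that class by construction. Together mylpfa, atp2a1, pvalb2 and ckmb took 62.0% of the muscle counts in control A and 62.1% in control B.

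Fast fibre proteins dominated. The 19 fast fibre genes that were members, a grouping made after their values were seen, summed to 58307 CPM per kb in control A and 73787 CPM per kb in control B. The 8 slow fibre genes that were members summed to 315 CPM per kb in control A and 279 CPM per kb in control B. Among the fast genes, the calcium pump atp2a1, which returns calcium to the sarcoplasmic reticulum, stood at 3932 CPM per kb in control A and 4237 CPM per kb in control B. The troponin C gene tnnc2, whose product senses calcium on the thin filament, stood at 4340 CPM per kb in control A and 3173 CPM per kb in control B. The light chain gene mylz3 stood at 4206 CPM per kb in control A and 4951 CPM per kb in control B. The creatine kinase gene ckmb, whose product buffers ATP during contraction, is not among the 19 fast fibre genes. It stood at 6866 CPM per kb in control A and 6218 CPM per kb in control B. Each of these was far above the slow myosin heavy chain smyhc1, at 70.9 CPM per kb in control A and 84.4 CPM per kb in control B.

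Regulators of muscle were low beside its structural genes. The factor myf5, which commits cells to muscle, stood at 7.35 CPM per kb in control A and 6.62 CPM per kb in control B. The later acting mef2ca stood at 18.8 CPM per kb in control A and 18.5 CPM per kb in control B. The factor genes myod1, myog and myf6 were listed at 0, as were the abundant structural genes acta1b, actc1b, ckma and myl1, so the sums for muscle cover only its quantified genes.

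The heart list looked different. It held 0.256% of the counts in control A and 0.382% in control B, and 1 gene, the giant spring protein titin gene ttna, held 66.6% of the list's counts in control A and 72.9% in control B. Skeletal muscle uses ttna as well, and fabp3, a fatty acid binding protein and the highest of the list per kb (788 in control A and 1127 in control B), is not restricted to the heart. Genes more particular to heart muscle were much lower. The atrial and ventricular light chain gene myl7 stood at 20.2 CPM per kb in control A and 25.5 CPM per kb in control B, and cardiac troponin T, tnnt2a, at 5.69 and 5.63 CPM per kb. The ventricular and atrial heavy chain genes vmhc and myh6 were listed at 0.

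The skin and periderm list held 3.59% of the counts in control A and 3.62% in control B. The keratin gene krt1-19e, which was higher in control A, is not on the list, so this share leaves its counts out. Of 60 annotated genes 41 were members and 19 of these lay in the highest 10%. The keratin gene krt4 alone held 53.0% of the list's counts in control A and 55.0% in control B. Other keratins followed, with cyt1l at 2444 CPM per kb in control A and 1982 CPM per kb in control B, and krt5 at 1158 CPM per kb in control A and 1354 CPM per kb in control B. The basal layer regulator tp63 stood at 24.8 CPM per kb in control A and 38.1 CPM per kb in control B. Genes for the junctions that hold skin cells together spanned a wide range. The tight junction gene cldni stood at 179 CPM per kb in control A and 244 CPM per kb in control B, and perp, a desmosome protein, at 85.5 CPM per kb in control A and 70.7 CPM per kb in control B. The 6 desmosome genes that were members summed to 165 CPM per kb in control A and 149 CPM per kb in control B, against 17559 CPM per kb in control A and 15726 CPM per kb in control B for 14 keratins, of which krt1-19e and krt18b are not on the skin list. Keratin genes resemble each other, and cyt1, krt91 and krt17 also overlap in their exons, so the split of reads among them is uncertain.

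The red blood cell list made up 1.01% of the counts in control A and 1.08% in control B, from 25 members of 39 annotated genes. Globins made up most of this. The alpha globin hbae3 held 54.4% of the list's counts in control A and 58.2% in control B. Beside it on chromosome 3 lie hbbe1.1, an embryonic beta globin at 3286 CPM per kb in control A and 3351 CPM per kb in control B, and hbbe1.2 at 2680 CPM per kb in control A and 2593 CPM per kb in control B. These 3 genes span chr3:55965769-55999416 and held 0.890% of all counts in control A and 0.967% in control B. The globins hbae1, hbbe2 and hbbe3, which are close in sequence to those quantified, were listed at 0.

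The machinery that makes and holds haemoglobin was far below the globins per kb. The first enzyme of haem synthesis, alas2, stood at 54.1 CPM per kb in control A and 38.8 CPM per kb in control B. The anion exchanger of the red cell membrane, slc4a1a, stood at 68.0 CPM per kb in control A and 54.7 CPM per kb in control B. The master regulator gata1a lay between the 10th and 25th percentile of all members, at 2.26 CPM per kb in control A and 1.75 CPM per kb in control B. Quantified white blood cell genes held a smaller share than the red blood cell list, most of which came from globins. The macrophage and neutrophil list held 0.0323% of the counts in control A and 0.0316% in control B, none of its 23 members reached the highest 10%, and the neutrophil enzyme mpx stood at 5.84 CPM per kb in control A and 5.63 CPM per kb in control B. The macrophage pore protein mpeg1 stood at 1.26 CPM per kb in control A and 0.854 CPM per kb in control B, and lysozyme, lyz, was listed at 0.

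The lens list had a median of 419 CPM per kb, the highest of the tissue lists, and 22 of its 32 members lay in the highest 10%. It held 1.36% of the counts in control A and 2.03% in control B. Its 17 quantified gamma-M crystallins, which pack fish lens fibres densely, summed to 10805 CPM per kb in control A and 17273 CPM per kb in control B. The highest was crygm2d10, at 1752 CPM per kb in control A and 3130 CPM per kb in control B. The 9 beta crystallins that were members help to form the lens protein matrix, and not all of them are on the lens list. They summed to 3138 CPM per kb in control A and 3704 CPM per kb in control B. Alpha crystallins, the chaperones of the lens, were not members: cryaa and cryaba were listed at 0, and cryabb had counts of 2.18 in control A and 7.89 in control B. Lens fibre membranes were represented by lim2.4, at 252 CPM per kb in control A and 374 CPM per kb in control B. Gamma-M crystallins are near copies, 17 more of them were listed at 0, and how reads were divided among them is uncertain.

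Quantified genes of photoreceptors and other retinal cells held a small share of the counts. Of 83 annotated genes 28 were members, with 0.0685% of the counts in control A and 0.0643% in control B, and 2 of them lay in the highest 10%. The highest per kb was vsx1, a factor of bipolar cells and their precursors, at 67.0 CPM per kb in control A and 61.5 CPM per kb in control B. The other of these 2 was gnb1b, a G protein subunit gene. By CPM gnb1b led the list, at 228 in control A and 207 in control B, against 106 and 97.3 for vsx1. Whether its RNA came from the retina cannot be told in whole embryos. Of 9 opsin genes only 2 were members. The red opsin opn1lw2 stood at 5.80 CPM per kb in control A and 8.10 CPM per kb in control B, and the green opsin opn1mw2 at 0.471 and 0.522 CPM per kb. Rhodopsin, rho, was listed at 0.

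**Figure D4:**
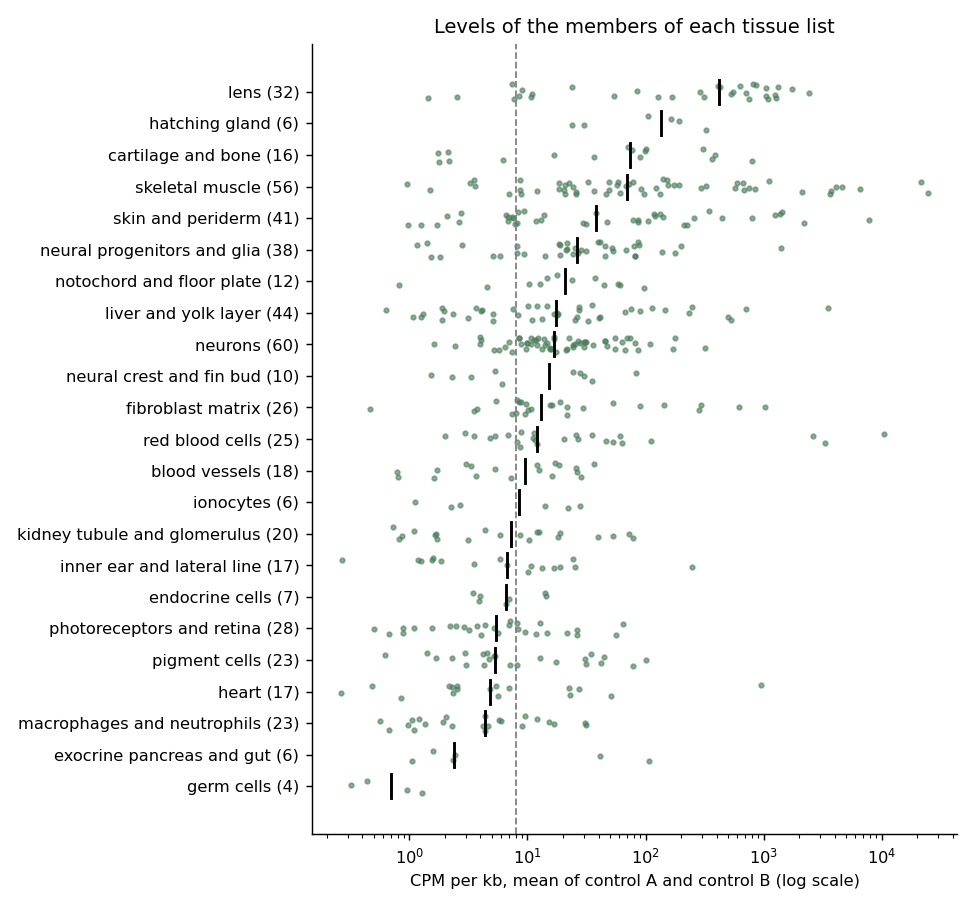
Level in CPM per kb (mean of control A and control B, logarithmic axis) of every member of each tissue list, 1 point per gene, with a black bar at the median of the list and a dashed line at the median of all members, 8.06. Lists are ordered by their median, from lens at 419 down to germ cells at 0.693, and the number of members stands in brackets.

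The fibroblast matrix list and the cartilage and bone list each took over 1% of the counts, and the notochord and floor plate list took much less. These shares depend on where genes were placed. The collagen genes col2a1a, col9a1, col9a2, col11a1a and col11a2 were on the cartilage list only. The matrilin genes matn1, matn3a and matn3b were on the notochord list. How much of their RNA came from cartilage or from notochord cannot be told in whole embryos. The fibroblast matrix list held 1.33% of the counts in control A and 1.54% in control B. Both chains of type I collagen led it: col1a1a stood at 864 CPM per kb in control A and 1201 CPM per kb in control B, and col1a2 at 550 CPM per kb in control A and 684 CPM per kb in control B. Its median, 13.0 CPM per kb, was much lower than these. Cartilage and bone held 1.18% of the counts in control A and 1.13% in control B, and 9 of its 16 members lay in the highest 10%. Type II collagen, col2a1a, stood at 828 CPM per kb in control A and 770 CPM per kb in control B. The cartilage regulator sox9b stood at 89.5 CPM per kb in control A and 110 CPM per kb in control B, and sox9a at 76.3 CPM per kb in control A and 77.0 CPM per kb in control B.

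Genes of bone formation were low or under the minimum. The osteoblast factor runx2b stood at 2.17 CPM per kb in control A and 2.04 CPM per kb in control B, and sp7, which acts after it, had counts of 3.00 in control A and 3.50 in control B. The notochord and floor plate list held 0.103% of the counts in control A and 0.109% in control B. It was led by the matrix protein matn4, at 92.6 CPM per kb in control A and 103 CPM per kb in control B. The signal shha, which the notochord and floor plate secrete, stood at 25.4 CPM per kb in control A and 22.4 CPM per kb in control B.

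The liver and yolk layer list held 0.771% of the counts in control A and 0.875% in control B, with 44 members of 84 annotated genes. Lipid carriers were its highest genes. The apolipoprotein apoa2 stood at 2972 CPM per kb in control A and 4097 CPM per kb in control B and alone held 30.4% of the list's counts in control A and 36.9% in control B. It was followed by apoc1l, at 616 CPM per kb in control A and 808 CPM per kb in control B. The 9 apolipoprotein genes that were members summed to 5245 CPM per kb in control A and 6436 CPM per kb in control B. Of 17 annotated apolipoprotein genes 7 were listed at 0. The list's genes apoa1a, apoa1b, apoba and apoea were at 0, so this sum and the order of the genes cover only quantified ones. Genes of blood clotting were far below them, and the highest of the 3 fibrinogen chains, fga, stood at 40.1 CPM per kb in control A and 39.9 CPM per kb in control B. The liver fatty acid binding protein fabp10a stood at 4.34 CPM per kb in control A and 3.88 CPM per kb in control B. Vitellogenins, the yolk proteins made by the liver of adult females, were not members: 7 of 8 were under the minimum and 1 was listed at 0.

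Digestive and hormone genes were among the lowest. The exocrine pancreas and gut list held 0.0215% of the counts in control A and 0.0271% in control B from 6 members of 34 annotated genes. Its highest gene was fabp2, a fatty acid binding protein of the intestine, at 94.9 CPM per kb in control A and 120 CPM per kb in control B, with 47.1% of the list's counts in control A and 47.4% in control B. About as many counts came from meis3, with 518 in control A and 1107 in control B, against 525 and 1102 for fabp2. Neither gene encodes a digestive enzyme. Of 23 genes for digestive enzymes 5 were members, and these held 0.00141% of all counts in control A and 0.00129% in control B. The highest of them, the protease gene ctrl, stood at 2.68 CPM per kb in control A and 2.24 CPM per kb in control B. Trypsin, try, had counts of 4 in control A and 14.3 in control B. The endocrine cell list held 0.00908% of the counts in control A and 0.00744% in control B. Its leading genes by CPM were pax6b (38.3 in control A and 25.2 in control B) and nkx2.2a (22.5 and 22.3). Of these, pax6b is also on the list of neural progenitors and glia. The 3 pancreatic and pituitary hormone genes that were members held 0.00212% in control A and 0.00185% in control B. The glucagon gene gcgb stood at 7.48 CPM per kb in control A and 5.67 CPM per kb in control B, whereas insulin (ins), growth hormone (gh1) and prolactin (prl) were listed at 0.

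The quantified genes of the neuron list were many of middling level rather than a few very high ones. The neuron list had 60 members, the most of any tissue list, which held 0.658% of the counts in control A and 0.683% in control B. Its 4 highest genes by CPM made up 30.2% of its counts in control A and 34.5% in control B, a lower share than in any other tissue list. This share depends on the number of members, which was 4 in the germ cell list and 6 in the ionocyte list, so the lists are not alike in it. The genes tubb5, tuba1c, tuba2 and tmsb of this list were listed at 0, so this profile covers only its quantified genes. The growth cone protein stmn2b led at 253 CPM per kb in control A and 379 CPM per kb in control B. The pan-neuronal RNA-binding protein elavl3 stood at 170 CPM per kb in control A and 185 CPM per kb in control B. For transmitter release, stxbp1a stood at 154 CPM per kb in control A and 189 CPM per kb in control B, and snap25a at 54.6 CPM per kb in control A and 55.7 CPM per kb in control B.

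Genes that mark transmitter types ranged in level. The GABA-making enzyme gad1b stood at 20.4 CPM per kb in control A and 13.3 CPM per kb in control B. The vesicular glutamate transporter slc17a6b stood at 20.1 CPM per kb in control A and 14.9 CPM per kb in control B. The serotonin enzyme tph2 was lower, at 2.03 CPM per kb in control A and 1.22 CPM per kb in control B, and the dopamine enzyme th was listed at 0. Dividing and glial cells of the nervous system had 38 members with a median of 26.1 CPM per kb. Among them fabp7a, a radial glia protein, reached 1219 CPM per kb in control A and 1603 CPM per kb in control B. The Notch receptor gene notch1a stood at 70.1 CPM per kb in control A and 67.8 CPM per kb in control B, and its ligand dla at 49.8 CPM per kb in control A and 41.5 CPM per kb in control B. The myelin basic protein genes were unequal, with mbpb at 16.2 CPM per kb in control A and 20.6 CPM per kb in control B, and mbpa at 1.08 CPM per kb in control A and 1.73 CPM per kb in control B.

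The remaining tissue lists were small. The blood vessel list held 0.0698% of the counts in control A and 0.0682% in control B. It was led per kb by gata2a, at 28.2 CPM per kb in control A and 44.6 CPM per kb in control B. The endothelial adhesion gene cdh5 stood at 1.71 CPM per kb in control A and 1.72 CPM per kb in control B. The vessel genes kdrl, kdr, tie1 and flt4 were listed at 0, so this share covers only quantified genes. Kidney held 0.130% in control A and 0.121% in control B, led by the sodium pump gene atp1a1a.1 at 86.7 CPM per kb in control A and 71.5 CPM per kb in control B, whose exons overlap those of atp1a1a.2. Pigment cells held 0.120% in control A and 0.0993% in control B. Their melanin enzymes dct, at 90.5 CPM per kb in control A and 65.4 CPM per kb in control B, and tyr, at 28.3 CPM per kb in control A and 33.0 CPM per kb in control B, were well above the lineage factor mitfa, at 3.35 CPM per kb in control A and 5.14 CPM per kb in control B. The list also held purine enzymes that other dividing cells use, among them its highest gene, paics.

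The inner ear and lateral line list held 0.0558% of the counts in control A and 0.0601% in control B, of which pvalb9, a parvalbumin of hair cells among other cells, took 31.1% in control A and 37.6% in control B. The neural crest and fin bud list took 0.0625% in control A and 0.0621% in control B. It was led per kb by the factor gene tfap2a, at 79.9 CPM per kb in control A and 85.3 CPM per kb in control B. By CPM tfap2a, tfap2c and tfap2b were its leading genes. Its genes sox10, foxd3, twist1a and dlx2a were listed at 0, so the share covers only quantified genes. The list of ionocytes, the salt-transporting cells of the skin, held 0.0214% in control A and 0.0195% in control B. Its highest gene per kb, atp6v1ab (34.7 in control A and 20.8 in control B), is also on the lysosome list. Its genes foxi3a, foxi3b and slc9a3.2 were listed at 0. The hatching gland, whose enzymes dissolve the egg shell, held 0.160% in control A and 0.130% in control B, and its protease he1a stood at 193 CPM per kb in control A and 137 CPM per kb in control B. By CPM he1a stood at 205 in control A and 145 in control B. It was exceeded by ctsla, also on the lysosome list (687 and 657 CPM), and by xbp1 (491 and 363 CPM). The share is thus not that of the hatching enzymes alone. Germ cells came last at 0.00109% in control A and 0.00118% in control B. The germ line helicase vasa stood at 0.811 CPM per kb in control A and 1.08 CPM per kb in control B, in the lowest class of member levels, under 1 CPM per kb on average. Every one of the 23 tissue lists had at least 4 members, although several lists hold genes that other tissues use too.

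Among functions shared by all cells, cytosolic ribosomal proteins stood first with 10.9% of the counts in control A and 9.64% in control B. Of 85 annotated genes 59 were members, 57 of these lay in the highest 10%, and 39 were among the 100 highest genes per kb. Their median was 1347 CPM per kb, the highest of all 35 lists. The 34 quantified proteins of the large subunit had a median of 1051 CPM per kb and the 24 of the small subunit a median of 1690 CPM per kb. One ribosome needs 1 copy of nearly every such protein, yet their levels ran from 16.9 CPM per kb, for 1 of 2 genes named rpl37, to 8843 CPM per kb for rplp0. The other 26 genes of the list, rps6 and rpl11 among them, were listed at 0.

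Translation factors held 3.58% of the counts in control A and 3.54% in control B. Their leading gene, eef1a1l1, which brings aminoacyl tRNAs to the ribosome, stood at 4858 CPM per kb in control A and 5535 CPM per kb in control B. RNA splicing and binding proteins held 3.95% of the counts in control A and 3.96% in control B, spread over 70 members with 48 in the highest 10%. Their highest were cirbp, a stress-regulated RNA-binding protein, at 1894 CPM per kb in control A and 1582 CPM per kb in control B, and ybx1, a binder of messenger RNA, at 1655 CPM per kb in control A and 1811 CPM per kb in control B. The cytoskeleton held 3.13% in control A and 3.51% in control B, and the chromatin list 2.04% in control A and 2.53% in control B. In the chromatin list hmgn2, a nucleosome-binding protein, stood at 2914 CPM per kb in control A and 4939 CPM per kb in control B. The 2 annotated h3f3a genes encode a histone H3 variant and are near copies, so their split is uncertain.

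Protein quality control and energy metabolism followed. Chaperones held 1.90% of the counts in control A and 1.82% in control B, led by hspa8, a constitutive Hsp70, at 2396 CPM per kb in control A and 2134 CPM per kb in control B. Proteasome and ubiquitin genes held 0.676% in control A and 0.651% in control B, and 20 of their 24 members lay in the highest 10%. Oxidative phosphorylation held 0.982% in control A and 1.19% in control B, with 36 of 45 members in the highest 10% and atp5g3b, a subunit of the ATP synthase rotor, at 916 CPM per kb in control A and 1553 CPM per kb in control B. Glycolysis held 0.710% in control A and 0.565% in control B, led by gapdh at 1535 CPM per kb in control A and 1146 CPM per kb in control B. All 37 genes of the mitochondrial genome were listed at 0.

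The DNA replication and mitosis list made up 0.599% of the counts in control A and 0.508% in control B. The replication helicase subunit mcm7 stood at 392 CPM per kb in control A and 374 CPM per kb in control B, the mitotic cyclin ccnb1 at 82.0 CPM per kb in control A and 63.6 CPM per kb in control B, and the proliferation marker mki67 at 35.4 CPM per kb in control A and 42.4 CPM per kb in control B. Lysosomal genes held 0.339% in control A and 0.341% in control B, with ctsla, a cathepsin also used by the hatching gland, at 330 CPM per kb in control A and 316 CPM per kb in control B. Circadian clock genes held 0.115% in control A and 0.108% in control B, and the cryptochrome cry2a stood at 70.7 CPM per kb in control A and 70.3 CPM per kb in control B.

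The structure of highly expressed genes depended on the scale of the ranking. The highest 10% by CPM per kb had a median of 1884 exonic bases in 7 exonic regions, against 2515 bases in 10 regions over all members. Its genes spanned a median of 10.9 kb, against 20.8 kb over all members. Ranked by CPM instead, the highest 10% had a median of 2830 exonic bases in 11 exonic regions and a span of 17.0 kb, so the differences in length and region number turned round. Across the 10030 genes, Spearman's rho between level and exonic length was -0.13 per kb and 0.30 in CPM. These are correlations across genes, which are not independent replicates, and level per kb contains the length.

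Some of the top genes were neighbours. Chromosome 3 held 13.7% of the counts in control A and 14.2% in control B, with 5.26% of the members, 7 of the 20 highest members per kb and 14 of the 100 highest. Of the 100 highest members, 13 lay within 50 kb of another of them, and among the next 100 this was true of 15. In the other classes of 100 members by rank the median was 2. The neighbours among the 100 highest were the 3 globin genes given above, 5 gamma-M crystallin genes at chr9:23304401-23351856, the keratin genes krt1-19e, cyt1l and cyt1 at chr19:5963567-5988852, and rpl3 with rpl27 at chr3:30018332-30050291. The crystallin cluster held 0.574% of the counts in control A and 0.925% in control B.

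Control A and control B were alike in most genes but not in all. Across the 10030 members the log2 ratio of CPM, control A over control B, had a median of 0.16, and 66.1% of members were above 0. The median absolute log2 ratio was 0.30. It was 0.50 for 1461 members with a mean count from 10 to 30 and 0.25 for 1083 members with a mean count of 1000 or more. Past 2-fold there were 378 members (3.77%), 324 of them higher in control A (3.23%) and 54 lower in control A (0.538%). Of these 378 members 186 had a mean count under 30. With a trimmed mean of M values in place of the library totals, the shift of 0.16 is removed and 299 members were past 2-fold, 177 higher and 122 lower in control A. The minimum count stood at a higher CPM in control A than in control B, and its part in the direction of the low members was not tested.

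**Figure D5:**
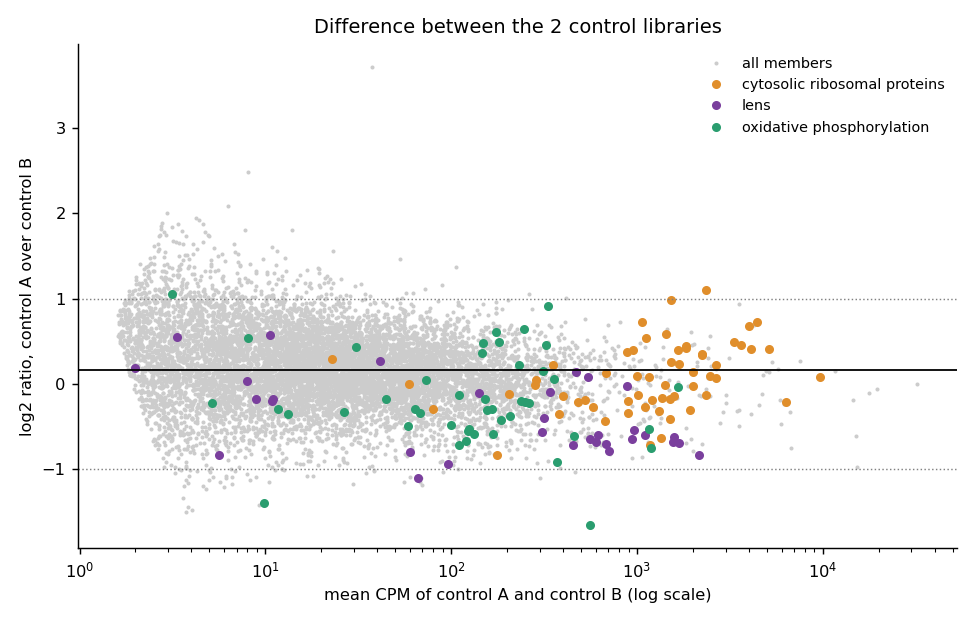
Log2 ratio of CPM, control A over control B, against the mean CPM (logarithmic axis) of each member in grey, with members of 3 lists in colour. The black line is the median of all members, 0.16, and the dotted lines mark 2-fold; lens genes above 100 CPM lie mostly between 0 and -1, and ribosomal protein genes lie on both sides of the line.

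The 8 named members furthest apart in either direction, with a mean of at least 10 CPM, came from varied functions. The mitochondrial import pore gene tomm40 had estimated counts of 361 in control A and 45.3 in control B, a log2 ratio of 3.72, and its exons overlap those of ddx61. Without known strand counting such overlapping genes cannot be told apart. The thymidine kinase gene tk1, used in DNA synthesis, had counts of 404 in control A and 243 in control B, a log2 ratio of 1.46. The chromatin protein gene hmgb2a, whose exons overlap those of galnt7, had counts of 799 in control A and 510 in control B, a log2 ratio of 1.38. The others were ankrd46a, TMEM71, BRINP3, PCDH8 and FNDC7, with log2 ratios from 1.36 to 1.80. In CPM all 8 were over 2-fold higher in control A, and the ratio for tk1 was 2.75 with a 95% exact interval from counting error alone of 2.34 to 3.24.

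In the other direction slc25a5, an ADP/ATP carrier of the mitochondrial inner membrane, had counts of 1385 in control A and 7263 in control B, a log2 ratio of -1.66, and its exons overlap those of slc25a43. Its ratio was 0.316, with a 95% exact interval of 0.298 to 0.334 from counting error alone. The galectin gene lgals1l1 had counts of 983 in control A and 3523 in control B, a log2 ratio of -1.11. The lens membrane gene lim2.3 had counts of 218 in control A and 776 in control B, a log2 ratio of -1.11 as well. The others, with log2 ratios from -1.19 to -1.09, were micos13, ponzr3, ponzr4, s100v2 and the cyclin gene ccnk. Of these, ponzr3 and ponzr4 belong to the same gene family.

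Some lists were displaced as a whole between the libraries. The lens list had a median log2 ratio of -0.59, against 0.16 for all members, and 28 of its 32 members were below the median of all members. Every one of the 17 gamma-M crystallins was below it, with log2 ratios from -0.84 to -0.11. These are near copies whose split of reads is uncertain, so their ratios are not separate observations. The 9 beta crystallins, not all of them on the lens list, had a median of 0.03, with 7 of 9 below the median of all members. Oxidative phosphorylation had a median of -0.29 with 34 of 45 members below the median of all. In it complex IV stood lowest, with a median of -0.59 and all 7 members below the median of all. Glycolysis had a median of 0.38 with 16 of 23 members above the median of all, and the hatching gland a median of 0.54 with 5 of 6 above it. The hatching gland members include the neighbours he1a and he1b and genes that share the name ctslb, so their ratios may not be separate observations either.

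Past 2-fold the lists had few members. There was 1 of 32 in the lens list, 3 of 45 in oxidative phosphorylation, 1 of 23 in glycolysis, 0 of 56 in skeletal muscle and 1 of 59 in ribosomal proteins, against 3.77% of all members. The macrophage and neutrophil list had 4 of 23. Over all members with a mean count from 10 to 30 the share past 2-fold was 12.7%, and from 30 to 100 it was 5.11%. These counts hold for library totals. With the trimmed mean, 2.98% of all members were past 2-fold. The counts were then 3 of 32 in the lens list, 3 of 56 in skeletal muscle and 0 of 59 in ribosomal proteins. Macrophages and neutrophils had 2 of 23, with oxidative phosphorylation and glycolysis as before. With 1 pooled library on either side no test of these displacements is possible.

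Read position moved with the library as well. For 2404 members with 1 transcript, at least 2 exons, 1000 exonic bases and 100 exon counts in both libraries, the last of 3 equal stretches of the transcript, at its 3′ end, held a median of 36.5% of exon counts in control A and 39.4% in control B. The share was higher in control A for 542 of them. Short genes were frequent among members past 2-fold in both directions, and most of all among those lower in control A. Of the 54 members over 2-fold lower in control A, 38 had between 102 and 1520 exonic bases, the shortest of 5 length classes, as had 113 of the 324 over 2-fold higher in control A. Over all members 2006 of 10030 were in that class. The part of read position and length in the displaced lists was not tested.

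The genes that were never quantified differed from the members in kind. Of 19080 genes with a symbol, 45.5% were members, 8.57% were under the minimum and 45.9% were listed at 0. Of 9760 genes with only a placeholder name, 13.6% were members and 70.3% were listed at 0, and of 3672 names of small or ribosomal RNAs 99.5% were listed at 0. Among genes with a symbol, those listed at 0 spanned a median of 10.5 kb, against 22.6 kb for members, and 15.0% of them overlapped another annotated gene, against 22.8% of members. The small or ribosomal RNA names listed at 0 spanned a median of 0.116 kb, and 38.9% of them overlapped another gene. By nuclear chromosome, the share listed at 0 ran from 51.4% on chromosome 9 to 73.2% on chromosome 11, and chromosomes 4, 7 and 14 were high too, at 70.7%, 69.1% and 69.4%. Only 3 of the 19279 genes have exon lines in the deposited annotation. Genes that every dividing cell uses, such as pcna, cdk1 and top2a, were among them, so a value of 0 is not read here as absence of the RNA.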

How the data were processed

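The titles of the samples gave their group. The submitters' processing notes name the build Zv9 and, as tools, DESeq, Bowtie2 2.0.2, TopHat2 2.0.6 and cutadapt 1.2.1. No source used here names the program that counted reads or its strand setting. Estimated counts were deposited by the authors (97.6% of member values were not whole) on 32512 gene, 22962 transcript and 232004 exon lines. The authors also deposited log2 values per gene, used here only for gene identifiers. Gene identifiers were matched to current symbols for 21939 genes.

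From the counts, CPM used each library's sum over all genes, and CPM per kb the union of a gene's exons (Python 3.11.15, pandas 2.3.3, scipy 1.17.1). The members and the gene lists were chosen with earlier results of these data known, and lists were matched by symbol. Named were the 20 highest members by either scale, up to 4 leading members a list, the 8 largest differences in either direction at a mean of at least 10 CPM, and 5 genes on either side of the minimum. Further genes and the groups within lists were chosen after their values were seen. An own trimmed mean of M values was tested on simulated data. A planned search of promoters for short motifs was not run, because no promoter sequence was used here. Intervals cover counting error only, and no p-value was computed.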

Additional observations from a re-analysis of the deposited data

How the results depend on the processing

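The number of members was 10030 and ran from 8878 to 12419 with a minimum between 20 and 1, was 9645 with the larger library scaled down, and was between 10193 and 10554 when 1 library alone set it. Members past 2-fold between control A and control B numbered 299 with a trimmed mean of M values (177 higher and 122 lower in control A) or with a median of ratios, and 342 when the 7 genes above 1% of a library were removed. With library totals 324 of 378 were higher in control A. Past 1.5-fold there were 2088 members. Past 2-fold there were 1191 genes at a minimum of 1 and 49 at a minimum of 100. Relative to the trimmed mean the lens median was -0.74, oxidative phosphorylation -0.45 and glycolysis 0.22, and the ribosomal protein median turned from 0.07 to -0.09. The median absolute log2 ratio stayed between 0.26 and 0.34 under the alternatives run.

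With the 10 most abundant genes left out, skeletal muscle held 5.10% of the counts rather than 12.4%, skin and periderm 1.95% rather than 3.60%, and RNA splicing and binding 4.66% rather than 3.95%. This follows from leaving out their own leading genes or from the smaller sum. With counts of members only, splicing and binding held 3.96%. From 1 library at a time, the shares ran from 11.6% to 13.2% for muscle, 3.59% to 3.62% for skin, 9.64% to 10.9% for ribosomal proteins and 3.95% to 3.96% for splicing and binding. By summed CPM per kb, 25 of the 35 lists changed place, and ribosomal proteins came before muscle. With the longest transcript as length, the medians of 11 lists moved by more than the spread between libraries. Ranked by CPM, the highest 10% had a median exonic length of 2830 rather than 1884 bases. No paired analysis was possible because only 1 group was described and no test was made. Control A had fewer counts, so its low values are less precise.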
